A study of Mus musculus with 2 samples.

Results

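The genes described here encode the ligands and receptors of the main axon guidance systems: semaphorins of classes 3 to 7, plexins, neuropilins, ephrins, Eph receptors, Slits, Robos, netrins, netrin-Gs, Dcc and the Unc5 receptors. They were chosen by gene symbol alone, among genes annotated as protein-coding, a rule that uses no measured value. Of 71 such genes in the annotation, 66 had at least 1 read, out of 18595 annotated genes with reads. Reads in both libraries were found for 59 of the 71, 7 were read in 1 library only, and 5 were read in neither.

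The study sequenced long cDNA reads of mouse hippocampus, in which 1 read is taken to stand for 1 RNA molecule and can show which exons were joined in it. There was 1 group of 2 libraries, both of adult C57BL/6 (B6NCrl) hippocampus at 6 months of age; the description gives male mice, while the field for sex was not filled in. The labels number the libraries as biological replicates 1 and 2, yet both carry the same donor identifier, so whether they came from separate animals is not given. No treatment, genotype or time was compared, and each p below compares 2 libraries, not 2 conditions.

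Axon guidance molecules steer growing axons and stay in use at adult synapses. Secreted class 3 semaphorins act through neuropilins paired with plexins, and most membrane-bound semaphorins bind plexins directly. Ephrins are held on the cell surface and bind Eph receptor tyrosine kinases on the neighbouring cell, with signals passing in both directions. Slits bind Robos, netrins bind Dcc and Unc5 receptors, and the netrin-Gs bind netrin-G ligands at synapses. In the hippocampus the Eph system is known for its part in laminar wiring and in the shape of dendritic spines.

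Some of the results turn on short coding stretches that differ between forms of a receptor, and these are shown first. At the edge of exon 9 of Epha7 (chromosome 4, plus strand), reads continued into 1 of several exons. Lower case marks the 30 coding bases before that edge and capitals the coding bases after it, up to the stop codon in the first sequence, as annotated in GENCODE M21 on mm10.
Epha7 truncated form: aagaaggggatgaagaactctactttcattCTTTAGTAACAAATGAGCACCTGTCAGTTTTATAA
Epha7 long kinase form: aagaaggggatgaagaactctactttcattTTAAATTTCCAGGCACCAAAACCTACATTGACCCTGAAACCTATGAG
Epha7 short kinase form: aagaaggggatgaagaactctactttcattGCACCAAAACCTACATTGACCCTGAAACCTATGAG
The first ends after 35 bases of the exon at chr4:28946219-28947047 and encodes a protein of 610 residues that lacks the kinase domain. The kinase forms run on for 1199 and 1187 coding bases and encode 998 and 994 residues.

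Further stretches that reads kept or left out are shown with those bases in capitals. In Epha7 they are the last 15 bases of exon 7 (chr4:28938765-28938779), and in Nrp1 the last 21 bases of exon 11 (chr8:128480969-128480989, plus strand). In Epha5 they are a whole exon of 66 bases (chr5:84117561-84117626, minus strand).
Epha7 alternative donor: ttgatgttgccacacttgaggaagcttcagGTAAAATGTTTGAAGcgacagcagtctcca
Nrp1 alternative donor: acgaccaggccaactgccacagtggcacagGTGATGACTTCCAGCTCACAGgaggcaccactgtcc
Epha5 66-base exon: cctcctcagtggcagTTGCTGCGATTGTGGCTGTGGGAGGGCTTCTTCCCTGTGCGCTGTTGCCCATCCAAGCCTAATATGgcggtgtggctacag
In Epha4 (chromosome 1, minus strand) a donor 29 bases further on (77374742 in place of 77374771) brings in an early stop codon. Capitals show the coding bases after the shared edge in the form that uses it and in the form that does not.
Epha4 early-stop form: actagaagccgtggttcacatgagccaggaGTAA
Epha4 main form: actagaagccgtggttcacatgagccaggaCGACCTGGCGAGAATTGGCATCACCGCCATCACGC

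The libraries held 1330153 reads in replicate 1 and 1366252 in replicate 2. The guidance genes took 1527 of them in replicate 1 and 1732 in replicate 2, or 1148 and 1268 CPM, which is the reads of a gene for each 1000000 reads of its library and the unit of level used throughout. One read was worth 0.752 CPM and 0.732 CPM. A gene with no read can lie anywhere up to 2.26 CPM in the first library and 2.20 CPM in the other, the level of 3 reads; such limits, and every interval below, cover counting error only. All 10 genes of a list of hippocampal field neuron markers had reads, and the list summed to 998 and 1115 CPM. Of the marker lists, choroid plexus differed most, with a sum of 14012 CPM in replicate 1 against 387 CPM in replicate 2, while meningeal markers summed to 1213 and 2887 CPM and oligodendrocyte markers to 5488 and 7309 CPM.

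Since each read is taken to stand for 1 molecule, CPM is not divided by transcript length. Levels of 2 genes can still differ in how well their transcripts are captured, and the longest annotated transcripts of the 49 genes with at least 10 reads had a median of 5663 bases, against 3458 bases over all 11255 protein-coding genes with as many reads.

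Summed over all genes, receptors outweighed ligands, and this rested on the EphA receptors. The 34 receptor genes summed to 818 and 893 CPM (855 ± 53.0 CPM, mean ± SD, n = 2). The 37 ligand genes summed to 330 and 375 CPM (352 ± 31.6 CPM). With EphA receptors left out, receptors lay above ligands in replicate 1 and below them in replicate 2. EphA receptors alone reached 469 and 550 CPM (509 ± 57 CPM). They were followed by class 4 to 7 semaphorins at 145 ± 17.7 CPM, plexins at 110 ± 11 CPM, neuropilins at 89.7 ± 4.60 CPM and ephrins at 82.7 ± 3.14 CPM. The other families were lower, from EphB receptors at 64.8 ± 9.79 CPM to Robos at 29.6 ± 2.59 CPM. By system the order varied. Receptors had the higher sum for both Eph classes over their ephrins, neuropilins over class 3 semaphorins and Unc5 receptors over netrins. Ligands had it for class 4 semaphorins over plexin-Bs (84.5 and 37.5 CPM) and Slits over Robos (40.3 and 29.6 CPM).

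**Figure D1:**
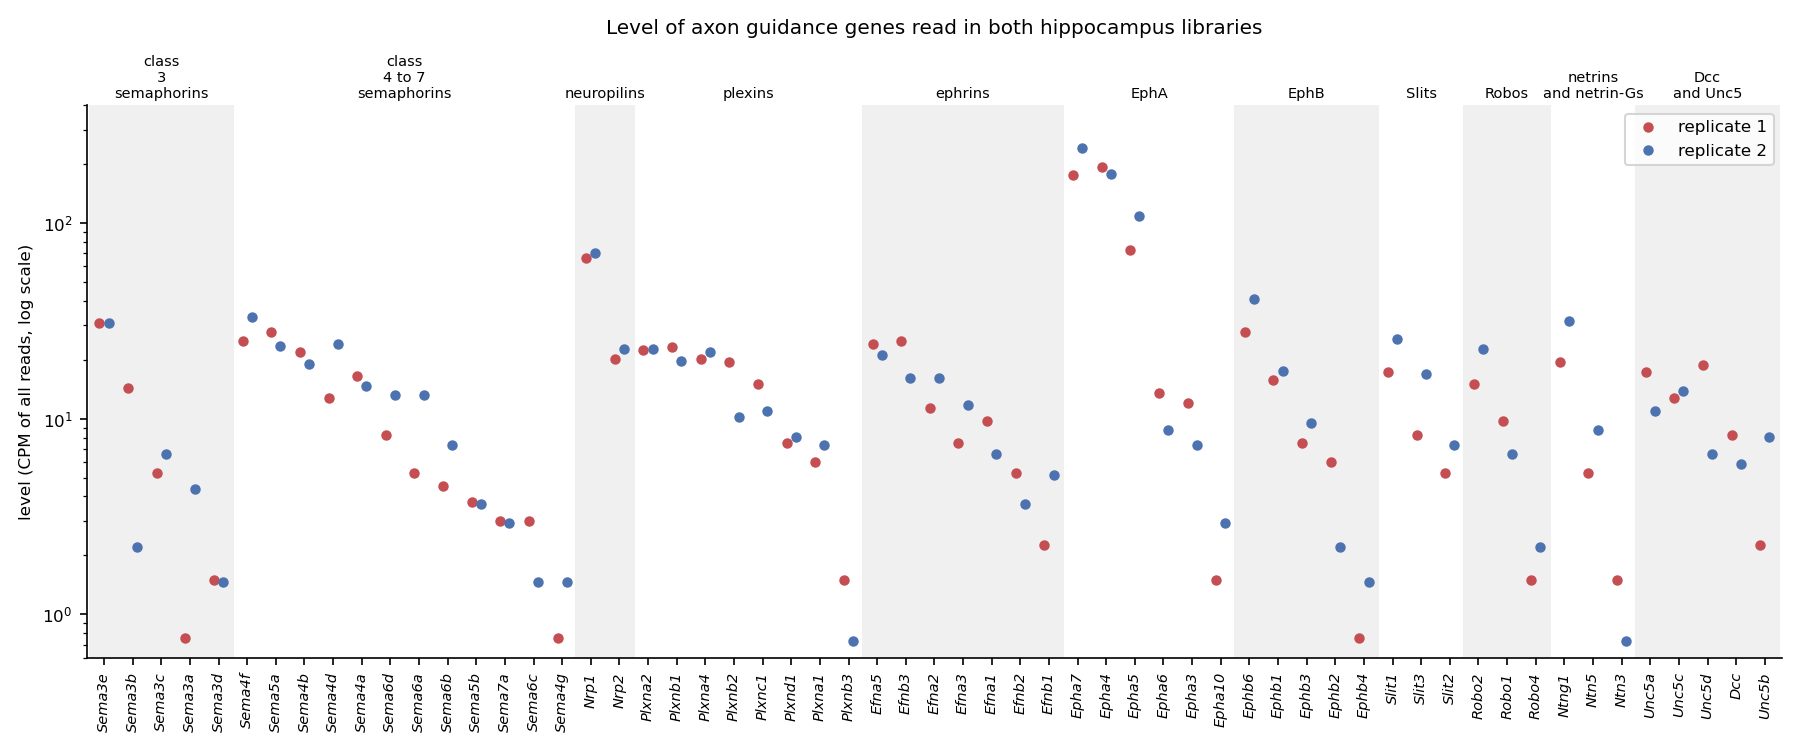
Level of each guidance gene that had reads in both libraries, in CPM on a log axis, with replicate 1 in red and replicate 2 in blue, grouped by family and ordered by mean level within it. Epha7, Epha4, Epha5 and Nrp1 stood above 60 CPM in both libraries, while every other gene stayed below 41 CPM.

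Epha7 and Epha4, tyrosine kinase receptors for ephrins, had the highest levels. Epha7 had 176 and 243 CPM and Epha4 had 193 and 179 CPM, so their order did not hold in both libraries. Their means were 209 ± 47.4 CPM for Epha7 and 186 ± 10.3 CPM for Epha4. Epha5, below both in each library, had 72.9 and 108 CPM (90.6 ± 25.0 CPM). The rest of the EphA family was far lower: Epha6 had 11.2 ± 3.36 CPM, Epha3 had 9.67 ± 3.33 CPM, Epha10 had 2 and 4 reads and Epha2 had 0 and 1 read, while Epha1 and Epha8 had none.

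Among EphB receptors, Ephb6 led with 27.8 and 41.0 CPM; it is known as a member whose kinase is inactive. Ephb1 followed at 15.8 and 17.6 CPM and Ephb3 at 7.52 and 9.52 CPM, and in both libraries each was below the one before. Ephb4, best known from veins, had 1 and 2 reads.

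The ephrins that these receptors bind were read less often. The 5 ephrin-A genes summed to 52.6 and 55.6 CPM (54.1 ± 2.12 CPM), beside 509 ± 57 CPM for the 9 EphA genes. The 3 ephrin-B genes summed to 32.3 and 24.9 CPM (28.6 ± 5.26 CPM), beside 64.8 ± 9.79 CPM for the 5 EphB genes. By mean level Efna5 came first at 24.1 and 21.2 CPM, then Efnb3 at 24.8 and 16.1 CPM and Efna2 at 11.3 and 16.1 CPM, and neighbours in this order overlapped. Those 3 had different kinds of reads. None of the 61 reads of Efna5 was spliced, 10 of 55 were for Efnb3, and 36 of 37 for Efna2. Efna4 had no read.

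Among the partners of the secreted semaphorins the neuropilins led. Nrp1, the neuropilin best known for binding Sema3a and Vegfa, had 66.2 and 70.3 CPM, and Nrp2, known for Sema3c and Sema3f, had 20.3 and 22.7 CPM. The neuropilins together reached 89.7 ± 4.60 CPM, beside 49.7 ± 5.14 CPM for the 7 class 3 semaphorins and 51.2 ± 1.13 CPM for the 4 plexin-As that signal with neuropilins. Sema3e had most of the class 3 reads, at 30.8 and 30.7 CPM. Sema3e is known to bind Plxnd1 without a neuropilin, and Plxnd1 had 7.52 and 8.05 CPM. The neuropilin ligands were sparse: Sema3c had 5.26 and 6.59 CPM, Sema3a had 1 and 6 reads, Sema3d 2 and 2 reads, Sema3f 0 and 1 read, and Sema3g 1 and 0 reads. Sema3b, the second of the class, is treated with the library test below.

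Of the membrane-bound semaphorins, Sema4f had 24.8 and 32.9 CPM, Sema5a 27.8 and 23.4 CPM and Sema4b 21.8 and 19.0 CPM, and the first 2 overlapped between libraries while Sema4b lay below Sema5a in both. The 6 class 4 genes summed to 76.7 and 92.2 CPM, above the 44.4 and 30.7 CPM of the 3 plexin-Bs that several of them bind. Sema4c had no read, Sema4g had 1 and 2 reads and Sema6c had 4 and 2 reads. The plexins with most reads were Plxna2 at 22.6 ± 0.0962 CPM, Plxnb1 at 21.5 ± 2.51 CPM and Plxna4 at 21.1 ± 1.17 CPM, where neighbours in this order overlapped. Plxna3 had 2 and 0 reads and Plxnb3 had 2 and 1.

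Slit1 had 17.3 and 25.6 CPM, Slit3 8.27 and 16.8 CPM and Slit2 5.26 and 7.32 CPM. Their receptors were Robo2 at 15 and 22.7 CPM and Robo1 at 9.77 and 6.59 CPM, while the divergent Robo3 had 2 and 0 reads and the endothelial Robo4 had 2 and 3.

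In the netrin system most reads were of the Unc5 receptors and of Ntng1. The 4 secreted netrin genes summed to 10 and 13 reads (8.52 ± 1.41 CPM), and 19 of these 23 reads were of Ntn5. Ntn1, the classical netrin, had 1 and 0 reads, Ntn3 had 2 and 1, and Ntn4 had none. Dcc had 11 and 8 reads. The 4 Unc5 receptors summed to 51.1 and 39.5 CPM, with Unc5a at 14.1 ± 4.46 CPM, Unc5c at 13.3 ± 0.796 CPM and Unc5d at 12.7 ± 8.63 CPM. Ntng1, a membrane-anchored netrin-G of axons, had 19.5 and 31.5 CPM, and its relative Ntng2 had 2 and 0 reads.

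A different order appears when only spliced reads are counted. EphA receptors kept 360.9 and 439.2 CPM of spliced reads, and Epha7, Epha4, Nrp1, Epha5 and Ephb6 were then the 5 highest genes. The order of the families below them changed: neuropilins had 74.9 ± 5.93 CPM of spliced reads, class 4 to 7 semaphorins 73.6 ± 20.1 CPM, plexins 58.3 ± 7.92 CPM, EphB receptors 57 ± 10.5 CPM and ephrins 37 ± 6.64 CPM. Without genomic and incomplete reads the plexins had 14.7 CPM and the EphA receptors 313 CPM. Dcc and the Unc5 receptors together had 9.77 and 8.05 CPM of spliced reads, and the netrins and netrin-Gs had 9.02 and 13.2 CPM. Unc5d had 1 spliced read of 34, Unc5c 2 of 36, Dcc 2 of 19, Plxna4 5 of 57 and Sema4b 4 of 55, and among genes with at least 10 reads Plxna1, Efnb2, Unc5b and Efna5 had none. Sema4d, in contrast, moved up to place 8, from place 19 among all reads.

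Among Epha7 reads that crossed the end of exon 9, most were of the truncated form. At the end of exon 9, 146 of 193 reads in replicate 1 and 215 of 285 in replicate 2 continued into the exon that ends the truncated protein. Those are 75.6% (exact 95% Clopper-Pearson interval 69.0% to 81.5%) and 75.4% (70.0% to 80.3%). The exons that carry on into the kinase domain were used in 42 and 65 reads, or 21.8% (16.2% to 28.3%) and 22.8% (18.1% to 28.1%). Within these, 28 and 47 reads used the exon start of the long kinase form and 14 and 18 that of the short one, which leaves out 12 bases, or 4 residues. A further 4 and 3 reads joined the exon of another annotated form, of 626 residues, and 1 and 2 joined an unannotated one. Exons that were not seen in both libraries, or had under 3 reads over both, are left out of these totals. With them 287 reads left the edge in replicate 2. The same holds for the choices between donors or acceptors below. It does not hold for the counts of whole exons kept in Epha5 and Nrp1, or for reads that covered 2 choices. Of all Epha7 reads, 62.4% in replicate 1 and 64.8% in replicate 2 joined the truncated exon. The rest include 11 and 17 spliced reads that began beyond the edge and ended past the truncated exon, and 21 and 20 single-exon reads. The annotated truncated transcript has 10 exons and 2880 bases, and that of the long kinase form 17 exons and 6746 bases. These shares were not corrected for that difference in length, and its part in them was not tested.

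**Figure D2:**
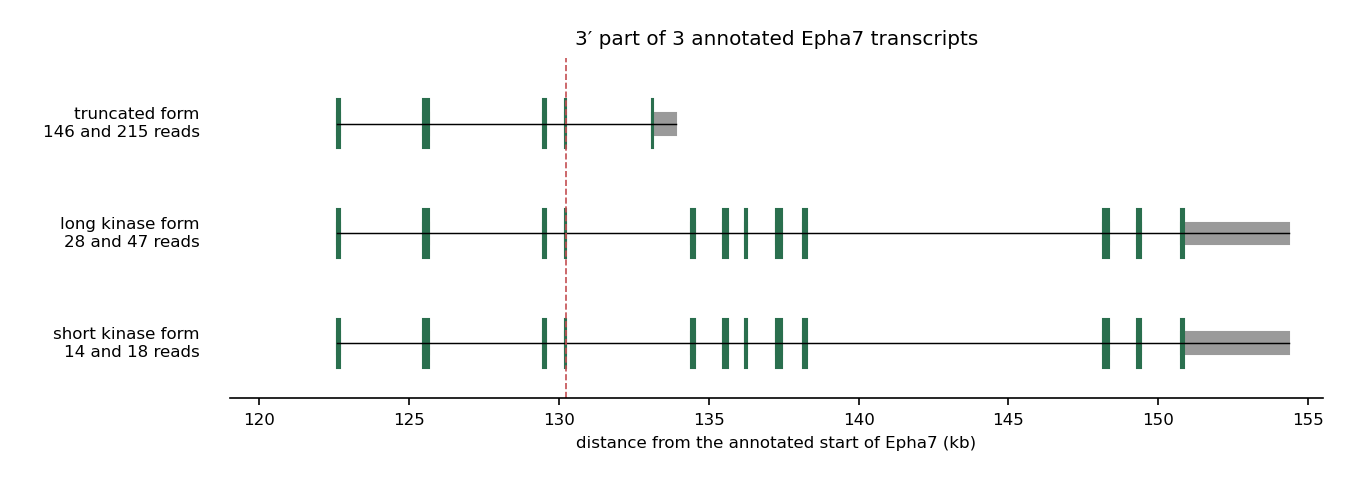
Annotated exons of 3 Epha7 transcripts from exon 6 on, drawn to scale by distance from the start of the gene in kb, with coding parts in green and untranslated parts in grey. The dashed line marks the edge of exon 9 that all 3 share, and the numbers give the reads of replicate 1 and replicate 2 that continued into each transcript's next exon: 146 and 215 for the truncated form, 28 and 47 for the long kinase form, and 14 and 18 for the short kinase form.

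A second choice in Epha7, 2 exons upstream, left out the 15 bases shown above, or 5 residues. It was made in 19 of 192 reads of replicate 1 (9.90%, 6.06% to 15%) and 38 of 286 of replicate 2 (13.3%, 9.58% to 17.8%). Single reads covered both choices. Among the 408 reads that kept the 15 bases, 311 ended in the truncated form (76.2%, 71.8% to 80.3%), and among the 56 that left them out, 46 did (82.1%, 69.6% to 91.1%). The intervals overlap, and the short donor was joined to both ends.

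Epha4 reads split between 2 donors before the last coding exon. The donor that adds 29 bases was used in 28 of 174 reads of replicate 1 (16.1%, 11% to 22.4%) and 36 of 178 of replicate 2 (20.2%, 14.6% to 26.9%). In the annotation it belongs to an incomplete transcript whose coding sequence stops 4 bases past the shared edge, 37 codons before that of the main form of 986 residues. Reads with this donor that covered the start and stop codons of the main form in 17 exons formed a model that the annotation does not hold, with 9 and 19 reads. An exon near the 5′ end (chr1:77511683-77511750) was skipped in 5 of 66 and 2 of 84 reads.

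Exons of Epha5 were included in some reads and skipped in others. The 66-base exon was kept in 26 of 35 reads of replicate 1 (74.3%, 56.7% to 87.5%) and 34 of 57 of replicate 2 (59.6%, 45.8% to 72.4%). Of 2 neighbouring exons further upstream, the first (chr5:84237399-84237554) was kept in 17 of 31 (54.8%, 36.0% to 72.7%) and 28 of 51 reads (54.9%, 40.3% to 68.9%). The second (chr5:84233583-84233918) was kept in 5 of 32 (15.6%, 5.28% to 32.8%) and 11 of 54 reads (20.4%, 10.6% to 33.5%). Reads that covered 2 of the choices held all 4 combinations of the 66-base exon and the first of that pair: 24 had both, 25 the 66-base exon alone, 17 the other alone and 12 neither. Over both libraries together, no model held more than 11.9% of the non-genomic reads of Epha5.

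Nrp1 carried a splice choice that is not in the annotation. A donor 21 bases before the annotated end of exon 11 leaves out 7 residues without a shift of frame. It was used in 12 of 62 reads of replicate 1 (19.4%, 10.4% to 31.4%) and 23 of 76 of replicate 2 (30.3%, 20.2% to 41.9%). The 51-base exon before the last was kept in 59 of 60 and 64 of 67 reads. Of the 54 and 63 spliced reads that began in exon 1, 34 and 44 reached the last exon, and 10 and 15 belonged to models that ended with exon 15, before that 51-base exon.

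Nrp2 exists as a and b forms, which differ in the membrane and cytoplasmic parts. Of 13 and 20 spliced reads, 11 and 19 reached the last exon of the annotated proteins of 906 and 901 residues, the b form, and 8 and 15 of them used its annotated acceptor. None reached the last exon that the 4 annotated a forms share. In 2 of 10 and 4 of 18 reads an unannotated splice skipped an exon and joined an acceptor shortly before the b-form exon. In Sema4d, an immune and neuronal semaphorin that binds Plxnb1, reads split after a shared donor. A path annotated only in an incomplete transcript was taken by 6 of 11 reads in replicate 1 (54.5%, 23.4% to 83.3%) and 13 of 26 in replicate 2 (29.9% to 70.1%). The other 5 and 13 reads took the path of the annotated protein of 861 residues.

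**Figure D3:**
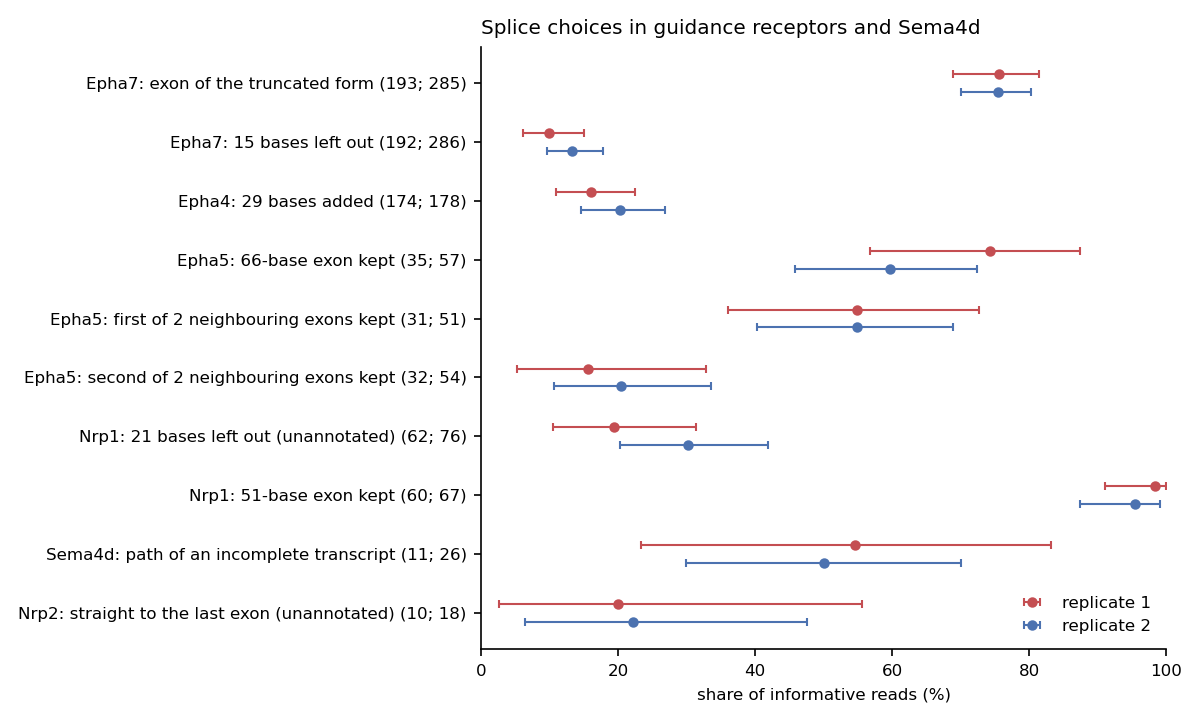
Share of informative reads that made each named splice choice, in percent, with replicate 1 in red above replicate 2 in blue; bars are exact 95% Clopper-Pearson intervals and the numbers in brackets are the informative reads of each library. The truncated Epha7 exon lies at 75.6% and 75.4%, while Sema4d and Nrp2 rest on at most 26 reads a library.

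Slit3 gave a short form. Its most frequent model, with 4 and 9 of 11 and 23 reads, began in exon 1 and ended after 4 exons, and is not annotated. The annotated full-length transcript has 36 exons and 1523 residues, and no read matched it from start to stop codon. Spliced reads that reached its last exon numbered 3 and 7.

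In all, 31 shared donors or acceptors in 10 guidance genes had at least 2 alternatives seen in both libraries, with 12 distinct junctions that are not annotated. These were listed after the reads were examined, and no difference between libraries was tested for them.

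How complete the reads were differed widely between genes. Reads that ran from an annotated start codon to its stop codon, with the annotated introns between them, made up 24.0% of the guidance reads in replicate 1 and 30.2% in replicate 2 (27.1 ± 4.40%, n = 2). For all other protein-coding genes the share was 70.9 ± 2.01%. Start and stop codons were counted only where they belong to the longest annotated coding sequence of a gene. Of the guidance reads, 38.3 ± 5.45% covered that start codon and 48.0 ± 0.721% that stop codon, against 74.7 ± 1.85% and 83.6 ± 1.85% for other genes. Reads of a shorter form with its own stop codon, such as the truncated form of Epha7, count here as lacking the stop codon. The median longest coding sequence was 2952 bases for the guidance genes and 1365 bases for all protein-coding genes with at least 10 reads. Genes of similar coding length were also set side by side, each placed by its longest coding sequence. Between 2000 and 3000 bases the spanning share was 36.2% for 20 guidance genes and 42.2% for 1735 others. The per-gene medians there were 26.8% and 30.8%. Epha7 gave 566 of the 1898 guidance reads of that group, and most of its reads joined the truncated form, of 1830 coding bases. Between 3000 and 4000 bases the share was 17.2% for 7 guidance genes and 16.8% for 712 others. Over 4000 bases it was 1.63% for 13 guidance genes and 6.86% for 686 others. Between 1000 and 2000 bases it was 11.5% for 5 guidance genes and 70.1% for 4304 others, with Ntng1 (0 of 69 reads) and Efnb3 (3 of 55) holding most of the guidance reads and per-gene medians of 5.45% and 63.2%. Up to 1000 bases, 73 of 146 reads of 4 guidance genes spanned, beside 85.4% for 3673 others. There Efna5 had 0 of 61, while Efna1 had 22 of 22, Efna2 33 of 37 and Efna3 18 of 26, and the per-gene medians were 79.2% and 84.7%.

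Among the 20 guidance genes that reached 20 reads in both libraries, Epha7 had the highest spanning share over both libraries together, at 61.7%, though Sema4a was higher in replicate 1 (63.6% against 61.5%) and Sema4f in replicate 2 (66.7% against 61.7%). The coding sequence of its truncated form has 1830 bases and that of its longest form 2994. By the same pooled share Sema4f followed at 60.3%, Sema4a at 57.1%, Ephb6 at 53.8% and Ephb1 at 35.6%. Ntng1, Efna5, Plxna2, Plxnb1, Slit1, Plxna4 and Robo2 had none. Of these, Efna5 has a coding sequence of only 684 bases, whereas Plxna2, Plxna4 and Plxnb1 need 5682, 5679 and 6357 bases.

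**Figure D4:**
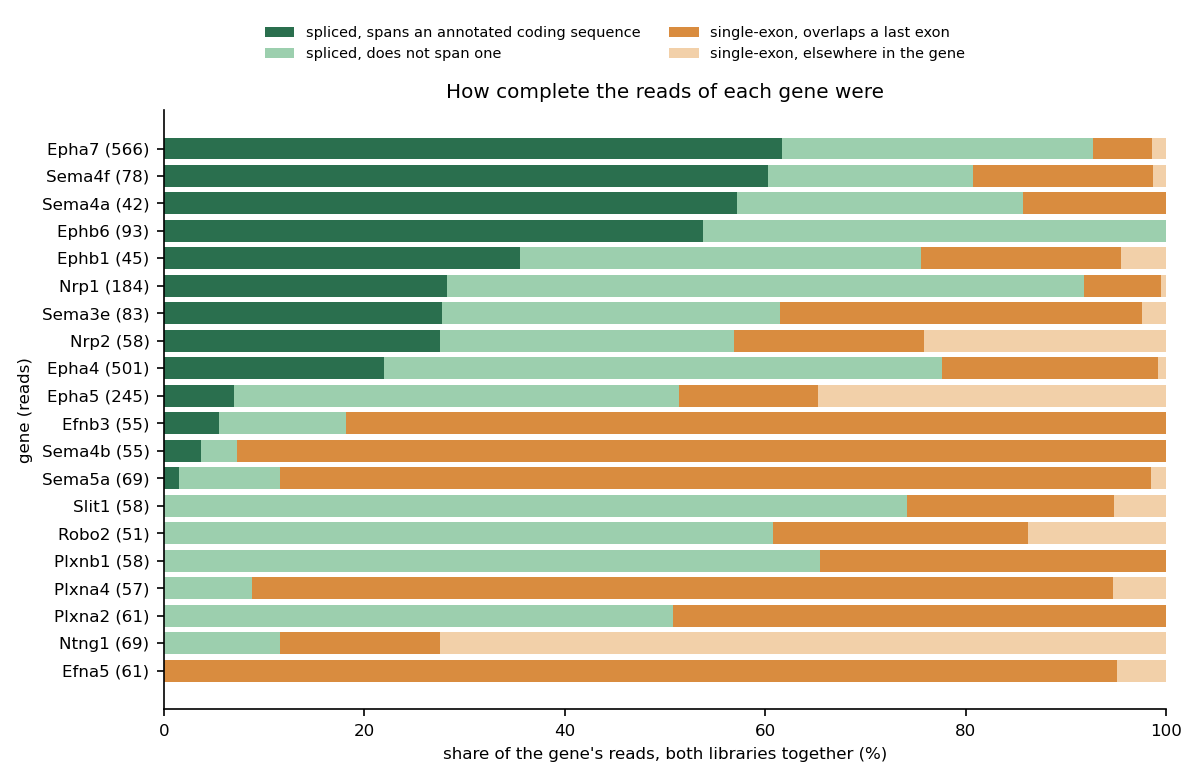
Reads of both libraries together for the 20 guidance genes that reached 20 reads in both, as shares in percent, with the number of reads in brackets. Dark green marks spliced reads that span an annotated coding sequence, light green other spliced reads, dark orange unspliced reads on a last exon and light orange unspliced reads elsewhere; Epha7 has 61.7% in dark green and Efna5 has no green.

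By class, 27.9 ± 3.51% of the guidance reads matched an annotated transcript, 34.1 ± 1.82% matched a part of one, 5.35 ± 1.17% joined annotated splice sites in an unannotated way, 4.61 ± 0.0625% used an unannotated splice site, and 28.1 ± 2.80% were of the genomic class, a TALON class for reads that overlap a gene and match none of its splice patterns. Other protein-coding genes had 70.4 ± 1.63% in the first class and 7.82 ± 1.43% in the last. Reads with a single exon made up 36.7% and 30.7% of the guidance reads and 13.8 ± 2.27% of the reads of other protein-coding genes. Of the 560 and 532 single-exon guidance reads, 446 and 410 overlapped a last exon and 51 and 30 lay wholly in introns.

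Several clusters of single-exon reads were found at the same place in both libraries. In Efna5, 30 and 28 of 32 and 29 reads lay in 1 cluster on the last exon, and in Sema5a, 29 and 28 of 37 and 32 did. Plxna4 had 24 and 24 reads in such a cluster, Sema4b 28 and 23, and Efnb3 28 and 17. Not all lay at the 3′ end. Epha5 had 28 and 55 single-exon reads over its first exon, within 577 bases, and Ntng1 had 23 and 25 at its 5′ end within 537 bases. For Ntng1 the assigned class differed between the libraries although the place did not: 23 and 5 were assigned to the annotated 1-exon transcript, and 0 and 20 to the genomic class.

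Leading models could be tested for 9 guidance genes, those with 20 or more non-genomic reads per library. Across all 6262 genes with as many, the share of the leading model differed between the libraries in 3.19% (two-sided Fisher's exact test, Benjamini-Hochberg adjusted p under 0.05), and none of the 9 did, with none at an unadjusted p under 0.05. Shares here are of a gene's non-genomic reads. The leading model held 70.8% and 76.9% for Sema4f, 40.5% and 58.9% for Ephb6, and 29.2% and 45.7% for Sema3e. For Epha7 it was the truncated form, with 48.7% and 51.1%. Over both libraries together, under 30% was held by the leading models of Nrp1 (26.4% and 27.1%), Epha4 (24.0% and 27.6%), Sema4a (13.6% and 25.0%), Plxna2 (6 of 20 and 6 of 23 reads) and Epha5 (16.3% and 9.09%). For Epha5 it was an incomplete model of 15 exons that matches no annotated transcript in full. For Plxna2 it was no spliced model but the unspliced incomplete reads of the gene, counted together.

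Between the libraries, 3 of the 49 guidance genes with at least 10 reads differed, 1 higher and 2 lower in replicate 1 (two-sided Fisher's exact test of each gene's reads against the rest of its library, Benjamini-Hochberg adjusted over 11891 genes). Over all genes tested the share was 5.95%, made up of 2.56% that were higher in replicate 1 and 3.38% that were lower there. The median log2 ratio of replicate 1 over replicate 2 was -0.11 over the guidance genes and -0.05 over all genes. The test sets a difference against counting error alone. With a dispersion estimated from the 2 libraries taken as replicates, edgeR's exact test called none of the 49 guidance genes and 0.42% of all 11891 genes, and 2 guidance genes had an unadjusted p under 0.05. By Fisher's exact test 6 did, beside 16.2% of all genes tested. For edgeR that share over all genes was not computed, so its 2 genes cannot be weighed against it. The edgeR dispersion was estimated from the same difference that it was set against, which holds down the number of calls. The labels number the libraries as biological replicates but give the same donor identifier, so spread between animals and technical spread cannot be told apart.

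Sema3b, a secreted semaphorin, had 19 reads in replicate 1 and 3 in replicate 2, or 14.3 and 2.20 CPM. The log2 ratio was 2.70 (exact 95% interval 0.94 to 5.10, adjusted p = 0.0111, Fisher's exact test). Choroid plexus markers moved with it: all 12 had a higher CPM in replicate 1, the 10 that could be tested all passed, and Kcne2, Otx2, Aqp1 and Slc4a5 had no read in replicate 2. Over all genes tested, 2.56% passed in that direction. Ttr, the main choroid plexus marker, had 11964 against 78.3 CPM. The part of choroid plexus cells in the result for Sema3b was not tested. In bulk tissue, fewer cells of a type and less RNA per cell cannot be told apart.

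Epha7 was lower in replicate 1, with 234 reads against 332 (log2 ratio -0.47, -0.71 to -0.22, adjusted p = 0.00472, Fisher's exact test). Among Epha7 reads that crossed the edge shared by its forms, both ends had the same direction. Reads that joined the truncated exon had 110 and 157 CPM (log2 ratio -0.52, -0.83 to -0.21). Reads that joined the kinase exons had 31.6 and 47.6 CPM (log2 ratio -0.59, -1.19 to -0.01). These are not the full levels of the forms. They leave out 11 and 17 spliced reads that began beyond the edge and ended past the truncated exon. Epha5 was lower as well, with 97 reads against 148 (log2 ratio -0.57, -0.96 to -0.19, adjusted p = 0.0452, Fisher's exact test). Of these, 28 and 55 were the unspliced reads at its first exon, and without them 69 and 93 reads remained (log2 ratio -0.39, -0.86 to 0.07). Its call was lost with TMM library sizes (adjusted p = 0.0889). In the same direction, 4 of 10 oligodendrocyte, 2 of 6 oligodendrocyte precursor, 1 of 7 meningeal and 1 of 7 endothelial markers tested were lower in replicate 1. Over all genes tested 3.38% were. None of the 10 hippocampal field neuron markers differed. The part of these cells in the result was not tested.

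**Figure D5:**
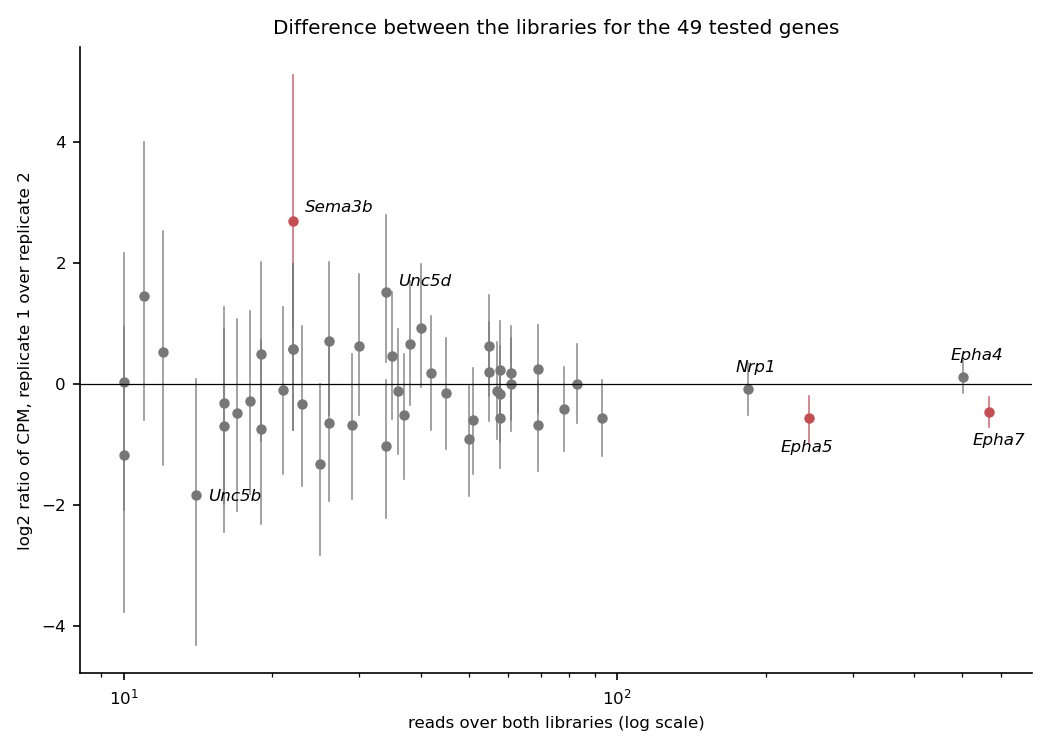
Log2 ratio of CPM, replicate 1 over replicate 2, of the 49 tested guidance genes against their reads over both libraries on a log axis; lines are exact 95% intervals that cover counting error only. The 3 genes past the threshold are in red: Sema3b at 2.70, Epha7 at -0.47 and Epha5 at -0.57.

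The other large ratios did not pass. Unc5d, a netrin receptor, had 25 and 9 reads (log2 ratio 1.51, adjusted p = 0.0794, Fisher's exact test), of which 9 and 0 formed a cluster of single-exon reads at its 3′ end. Ephb2 had 8 and 3 reads, Plxnb2 26 and 14, and Epha3 16 and 10. In the opposite direction, Unc5b had 3 and 11 reads, Sema6a 7 and 18, Efnb1 3 and 7, Slit3 11 and 23 and Sema4d 17 and 33.

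Genes that work with these ligands and receptors were compared in the same test. Over all genes tested, 2.56% passed as higher and 3.38% as lower in replicate 1. Of 23 co-receptors and other cues, 21 had reads and 20 could be tested; none was higher and 1, Plxdc2, was lower in replicate 1 (39.1 against 73.9 CPM). Cntn1, an axonal adhesion molecule, had 197 ± 6.87 CPM and Nrcam, a binding partner of neuropilins, 104 ± 11.9 CPM. Of 45 intracellular effectors, 40 could be tested, 3 were higher in replicate 1 and 1 was lower. Dpysl2, a mediator of semaphorin signals, was higher, at 346 against 105 CPM, as were Farp1 (94.0 against 56.4 CPM) and Cfl1 (596.9 against 508.0 CPM). Ngef, the exchange factor ephexin that EphA receptors act on, was lower, with 183 against 276 reads. The median log2 ratio was -0.10 over the co-receptors and cues and 0.10 over the effectors.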

How the data were processed

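The data were long-read RNA-seq libraries of mouse hippocampus, 2 in 1 group. The authors deposited whole-number read counts per transcript model for each library, with the exons of every model; the source field of the deposited annotations names TALON for new models, and per the description files mm10 with GENCODE M21 was used. Of the aligner, software versions, filters and strand setting, the sources used here say nothing, so sense and antisense reads of unspliced loci may be mixed. Other deposited values (exon number, length in bases) were not tested.

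Counts of all models of a gene were summed and divided by the library total to give CPM; 4.59% of reads lay on unannotated genes and stayed in the totals. Genes with at least 10 reads over both libraries were compared by Fisher's exact test (two-sided; Benjamini-Hochberg over every gene tested), since 1 group of 2 libraries leaves no condition to test, and edgeR's quasi-likelihood test has no contrast here. Shares have exact Clopper-Pearson 95% intervals. Leading models were matched by their introns, without genomic reads, in genes with at least 20 non-genomic reads in each library. Unspliced incomplete reads have no introns and were pooled per gene. The script for Fisher's test was tested on simulated counts. The members, gene lists and splice choices were chosen with earlier results of these data known. Named genes were the 3 highest of each family, those past the test, the 5 largest ratios in each direction, those under 3 reads in a library, and those with the lowest or highest completeness or a weak leading model; others in the text stand for their list and were chosen after their values were seen. Alternatives were TMM (edgeR 4.0.16), DESeq2 1.42.0 size factors, filters and read classes. Analyses ran in Python 3.11.15, SciPy 1.17.1 and R 4.3.3.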

Additional observations from a re-analysis of the deposited data

Results flagged for a closer look

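Reads on unannotated loci of the strand opposite to a guidance gene lay outside the comparisons above and exceeded the limit that a count of 0 allows, 3 reads, in each library at 8 genes. Over both libraries there were 57 such reads at Efna5, 22 at Plxna4, 21 at Sema4b, 18 at Epha4, 15 at Epha6, 14 at Epha7, 10 at Slit3 and 8 at Robo2. Over all guidance genes they numbered 179 in replicate 1 and 100 in replicate 2, and 257 of the 279 had a single exon. Most, 233, overlapped a cluster of single-exon reads of the sense strand; at Efna5 all 57 did, beside 61 reads assigned to the gene itself. At Epha6 and Slit3 none did. Since the strand setting is not given, which strand these unspliced molecules came from was not tested.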

How the results depend on the processing

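No paired analysis was possible because the study has 1 group only. The count of guidance genes that differed between the libraries was 3. It was 0 with edgeR's exact test, whose common dispersion came from the same libraries. At an unadjusted p under 0.05 edgeR gave 2, with no share over all genes computed. Under the other 6 alternatives it was 2 or 3. Over all genes tested, the share called was 0.42% with edgeR, 5.53% with TMM, 5.52% with DESeq2 size factors, 3.24% with no minimum, 7.08% with at least 20 reads, 5.68% without genomic and incomplete reads and 3.97% with spliced models only, beside 5.95%. Epha7 passed in each of those 6, Sema3b in 5 of them, and Epha5 only with a minimum of 20 reads. Without genomic and incomplete reads the ratio of Epha3 reversed, to -1.15 on the log2 scale from 3 and 7 reads. In that setting Ntng1 passed, in the place of Sema3b and Epha5. Of its 23 and 25 single-exon reads at the 5′ end, 0 and 20 were of the genomic class, so that leaving the class out kept 23 and 5. The summed level was 939 CPM without genomic reads, 581 CPM without genomic and incomplete reads, and 1344 CPM with protein-coding reads as the total, beside 1208 CPM; it was 1148 to 1268 CPM with 1 library left out. The share of reads matching an annotated transcript was 22% with each gene weighted equally, beside 27.9% (25.4% to 30.4% with 1 library left out). The share spanning a coding sequence, 27.1%, was 16.3% for the longest coding sequence only, 33.2% with introns not compared, 37.6% without genomic reads, 19.4% with equal weights, and 24.0% to 30.2% with 1 library left out; without Epha7, an alternative chosen after seeing the data, it was 19.9%. The count of leading models that differed was 0, and 1, Ntng1, with genomic reads in the total, where 3.4% of all genes tested differed. That Ntng1 model was the annotated 1-exon transcript, with the same 23 and 5 reads. Depth limits all of this: 22 of the 71 genes had under 10 reads in all.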
